A study of Mus musculus with 12 samples.

Results

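The 8 genes described here encode parts of the ribbon synapse, the contact through which inner hair cells of the cochlea pass sound signals to the auditory nerve. They were chosen by name: all non-control probes whose gene name in the array files was Otof, Slc17a8, Cacna1d, Cacnb2, Ctbp2, Cabp1, Cabp2 or Cabp4 were taken, which gave 140 of 165865 probes and 8 of 19505 genes. Their expression was measured on 12 single-color exon arrays with RNA from 3 turns of the cochlea (apical, middle and basal), 4 arrays each. The mice were untreated C57BL/6 males aged 6 weeks, and each array received labeled RNA made from 25 ng of total RNA. Per the methods, the tissue of a turn held spiral ganglion neurons, organ of Corti and lateral wall, so each value is an average over many cell types. The sources name 4 mice for the 12 samples and call the 4 samples of a turn independent, so the turns share mice, but they do not say which samples of different turns came from the same mouse. The tests between turns treated all 12 as independent.

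An inner hair cell releases glutamate whenever its membrane potential opens calcium channels at the ribbon, a dense body that holds synaptic vesicles close to the release site. The vesicles are filled by the glutamate transporter VGLUT3 (Slc17a8) and fuse in a step that needs otoferlin (Otof), a large protein with several calcium-binding C2 domains. Calcium enters through Cav1.3 channels, made of the pore-forming subunit encoded by Cacna1d and the auxiliary beta subunit encoded by Cacnb2, and calcium-binding proteins of the CaBP family (Cabp1, Cabp2, Cabp4) modulate how these channels inactivate. The ribbon itself is built from RIBEYE, a product of an alternative start site of Ctbp2, a gene that also encodes a widely expressed transcriptional co-repressor. The cochlea is ordered by sound frequency, with high frequencies at the base and low frequencies at the apex.

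Each probe is a 60-base sequence in an exon, and those on which the results turn are shown here in the sense of the transcript, 5′ to 3′. Probes are numbered from the 5′ end of their gene. No part is in capitals, since the whole sequence binds the labeled RNA. For Otof, the first probe, the probes listed for a single transcript and the probe with the largest difference are shown. For the other genes they are the probes that followed or departed from the rest of their gene.
Otof probe 1: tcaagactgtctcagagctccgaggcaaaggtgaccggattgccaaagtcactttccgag
Otof probe 28: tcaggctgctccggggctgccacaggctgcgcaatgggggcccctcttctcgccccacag
Otof probe 29: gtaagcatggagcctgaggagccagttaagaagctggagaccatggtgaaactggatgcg
Otof probe 37: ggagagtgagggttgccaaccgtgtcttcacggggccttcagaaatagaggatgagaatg
Otof probe 42: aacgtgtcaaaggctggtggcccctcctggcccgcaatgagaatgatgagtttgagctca
Otof probe 44: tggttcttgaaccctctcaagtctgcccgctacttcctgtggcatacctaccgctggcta
Slc17a8 probe 6: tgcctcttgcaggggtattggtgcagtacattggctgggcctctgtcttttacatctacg
Slc17a8 probe 7: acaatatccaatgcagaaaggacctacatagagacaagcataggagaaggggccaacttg
Cacna1d probe 3: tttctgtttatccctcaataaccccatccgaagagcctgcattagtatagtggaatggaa
Cacna1d probe 31: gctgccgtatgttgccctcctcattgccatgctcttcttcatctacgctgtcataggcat
Ctbp2 probe 3: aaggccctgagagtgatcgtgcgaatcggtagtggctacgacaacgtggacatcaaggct
Cabp1 probe 2: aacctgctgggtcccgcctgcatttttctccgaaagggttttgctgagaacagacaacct
Cabp1 probe 3: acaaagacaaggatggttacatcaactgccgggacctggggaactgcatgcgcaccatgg
Cabp2 probe 2: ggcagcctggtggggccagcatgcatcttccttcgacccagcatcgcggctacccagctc
Cabp2 probe 4: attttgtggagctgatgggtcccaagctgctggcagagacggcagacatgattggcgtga
Cabp4 probe 2: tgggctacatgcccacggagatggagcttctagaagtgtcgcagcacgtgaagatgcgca
Positions are those in the files, on the mouse build mm9. Otof spans chr5:30669401-30764152 (minus strand) and its probes shown here lie, in the same order, at chr5:30764093-30764152, chr5:30682547-30682606, chr5:30682476-30682535, chr5:30677215-30677274, chr5:30673276-30673335 and chr5:30672570-30672629. Those of Slc17a8 lie at chr10:89055621-89055680 and chr10:89054779-89054838 (minus strand), and those of Cacna1d at chr14:31163826-31163885 and chr14:30892509-30892568 (minus strand). The Ctbp2 probe is at chr7:140190503-140190562 (minus strand) and the Cabp1 probes are at chr5:115630801-115630860 and chr5:115625445-115625504 (minus strand). The Cabp2 probes are at chr19:4084186-4084245 and chr19:4086242-4086301 (plus strand), and the Cabp4 probe is at chr19:4138549-4138608 (minus strand).

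The values are fluorescence intensities, scaled so that the 75th percentile of every array is the same. The signal of a gene is the mean of its probes' log2 values, given below on the linear scale in scaled fluorescence units. A difference between turns is one of mean log2 values, and it was tested with limma's moderated contrasts over all 12 arrays. Adjusted p values are Benjamini-Hochberg values over all 19505 genes (or over all probes), and a gene was called changed when this value was under 0.05. Before scaling, the 75th percentile lay between 534.0 and 721.6. Feature Extraction marked 77.4% to 81.4% of the spots as well above background, and arrays of the same turn correlated with r between 0.991 and 0.9948 over genes. Each turn lay on a slide of its own, so that turn and slide cannot be told apart. After scaling, spike-in probes were brighter on the apical arrays (13.69 to 13.95 on the log2 scale) than on the basal arrays (13.29 to 13.39). Scaling to these probes instead moved the median difference of all genes from -0.04 to -0.52 log2 units between apex and base, from -0.07 to -0.28 between apex and middle, and from 0.04 to -0.23 between middle and base. It also moved the share of called genes that were higher at the apex than at the base from 44.9% to 5.13%, and scaling to the median moved it to 26.5%. The differences below are therefore relative to the bulk of genes on an array.

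Between apex and base, 5 of the 8 genes were higher at the apex (Otof, Slc17a8, Cacna1d, Cabp1 and Cabp2), where 17.6% of all genes were called in that direction. Ctbp2 was lower at the apex, as were 21.6% of all genes, and Cacnb2 and Cabp4 did not pass the test. Otof and Slc17a8 also passed a 2-fold limit, which 3.32% of all genes did in that direction. The median difference of the 8 genes was 0.67 log2 units, and that of all genes -0.04. Between middle and base, 7 of the 8 were higher in the middle turn, against 11.6% of all genes, 3 of them by 2-fold or more (Otof, Slc17a8 and Cabp2), against 2.21%. Between apex and middle, limma called 0 of the 8, against 12% of all genes in either direction. There, 5 of the 8 had an unadjusted p under 0.05 (32% of all genes) and the arrays of 4 did not overlap (20.8% of all genes), for which the two-sided exact permutation test of 4 arrays against 4 gives p = 0.0286, its smallest possible value. Each turn enters 2 of the 3 comparisons, so the 3 sets of counts are not independent.

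**Figure D1:**
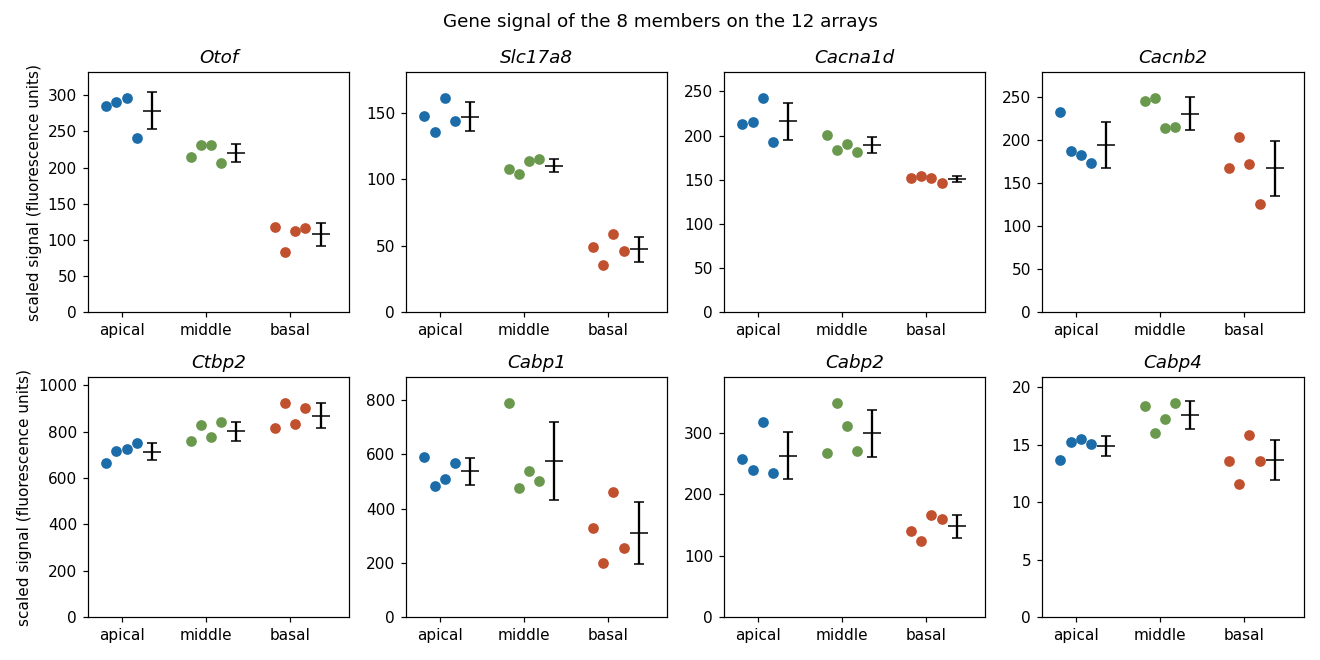
Scaled gene signal (fluorescence units, linear axis from 0) of the 8 genes on each of the 12 arrays, grouped by turn. Points are arrays and the bar beside them is the mean ± SD of 4. The Otof and Slc17a8 arrays of the 3 turns form separate groups, with basal means of 107.6 and 47.4, while those of Cacnb2 overlap between apex and base.

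Otof carries the exocytosis step of the inner hair cell. Its signal was 285.2, 291.0, 296.8 and 240.9 on the 4 apical arrays, 214.2, 230.9, 231.5 and 206.4 on the middle arrays, and 117.8, 83.69, 112.2 and 116.5 on the basal arrays. The 3 turns did not overlap, and the basal values lay furthest from the others. The means were 278.5 ± 25.5 (SD, n = 4), 220.7 ± 12.5 and 107.6 ± 16.1, a difference of 1.38 log2 units (SE 0.11, limma adjusted p = 6.19e-06) or 2.605-fold between apex and base. Middle and base differed by 1.05 log2 units (adjusted p = 0.000145), and apex and middle by 0.33 (adjusted p = 0.0733). In bulk tissue, fewer cells of a type and less RNA per cell cannot be told apart, which holds for each gene described here.

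The probes of Otof differed widely among themselves. Of 45 probes, 43 were higher at the apex than at the base, 34 of them by 2-fold or more, where 18% and 4.71% of all probes were called in that direction. Their differences ran from 0.00 to 2.41 log2 units. The highest was that of probe 29, which measured 1169 at the apex, 616.1 in the middle and 222.4 at the base. Probe 28, close to it on the genome and listed for the transcript NM_031875 alone, measured 603.7, 608.0 and 605.9, with a difference of 0.00 (SE 0.07, adjusted p = 0.977). The other probe listed for NM_031875 alone, probe 44, differed by 0.10 (adjusted p = 0.486), with 226.4 at the apex and 212.2 at the base. These 2 were the probes of Otof that were not called. The probes listed for NM_001100395 alone were both higher at the apex, probe 37 by 1.28 log2 units (adjusted p = 0.000308) and probe 42 by 0.36 (adjusted p = 0.00112). Set against the mean of the other Otof probes on the same array, probe 28 fell short by 1.42 log2 units (SE 0.136, limma adjusted p = 0.000338) and probe 29 exceeded it by 1.05 (SE 0.145, adjusted p = 0.0024). In this test 10 Otof probes lay above and 12 below the rest of the gene, where 10.4% of all probes were called. Probe 1 was well above background on all 4 apical and all 4 middle arrays and on 0 basal arrays, so its signal was at least 2.62-fold higher at the apex than at the base (adjusted p = 0.000509). Such a bound compares the mean of the brighter turn with the lowest signal still well above background on the dimmer arrays, or with the probe's own value there if that is higher.

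Slc17a8 encodes VGLUT3, which loads glutamate into the vesicles of inner hair cells. Its signal was 147.8, 135.3, 161.5 and 144.2 at the apex, 108.0, 104.2, 113.5 and 115.3 on the middle arrays, and 49.23, 35.66, 58.53 and 46.16 at the base. The groups of arrays did not overlap. It had the largest difference of the 8 genes, 1.65 log2 units between apex and base (SE 0.123, adjusted p = 3.87e-06) or 3.148-fold. Middle and base differed by 1.24 (adjusted p = 0.00011) and apex and middle by 0.42 (adjusted p = 0.051). All 11 probes were higher at the apex than at the base, by 0.76 to 2.13 log2 units, where 18% of all probes were called higher. The files list all 11 for the same transcript. Probes 5 and 6 had the smallest differences, 0.81 and 0.76, and lay below the other probes of the gene by 0.93 (adjusted p = 0.0173) and 0.98 log2 units (adjusted p = 0.00383). Probe 7 was well above background on all apical arrays, on 3 middle arrays and on 0 basal arrays, and was at least 2.44-fold higher at the apex than at the base (adjusted p = 0.000479).

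Cacna1d encodes the pore of the Cav1.3 channel, which carries nearly all calcium current of inner hair cells and also occurs in neurons. Its signal was 213.5, 215.2, 242.9 and 192.3 at the apex, 200.8, 184.0, 190.7 and 181.2 in the middle and 151.8, 153.9, 151.9 and 145.8 at the base. The basal arrays lay below all others, and the apical and middle arrays overlapped. The difference was 0.51 log2 units between apex and base (SE 0.0674, adjusted p = 0.000171) and 0.33 between middle and base (adjusted p = 0.00747). With scaling to the spike-in probes it was 0.03 (adjusted p = 0.829) and 0.05 (adjusted p = 0.713), and the apex-middle difference changed sign from 0.19 to -0.03. Of 45 probes, 31 were higher at the apex, where 18% of all probes were higher. Only 1, probe 31, was lower (by 0.16 log2 units, adjusted p = 0.0331), where 16.4% of all probes were lower. Probes 3 and 4, close to the 5′ end, had differences of 1.06 and 1.03 and lay above the other probes of the gene (adjusted p = 0.0167 and 0.0036). The first probe, listed for NM_028981 alone, differed by -0.13 (adjusted p = 0.406), and the second, listed for NM_001083616 alone, by 0.14 (adjusted p = 0.318). The last 5 probes at the 3′ end, grouped after their values were seen, ranged from 0.03 to 0.26 and none passed the test.

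Cacnb2 encodes the beta subunit that brings Cav1.3 channels of inner hair cells to the membrane. Its signal was 232.9, 187.2, 182.4 and 173.2 at the apex, 244.9, 249.4, 214.0 and 214.9 in the middle and 167.4, 203.9, 172.1 and 126.3 at the base. Apical and basal arrays overlapped, and the middle arrays all lay above the basal ones. The apex-base difference was 0.22 log2 units (95% interval -0.08 to 0.53, adjusted p = 0.242), and with spike-in scaling it was -0.26 (adjusted p = 0.104). Middle exceeded base by 0.48 (adjusted p = 0.0303). That call was lost when middle array 1 or 2 or basal array 1 or 4 was left out, with adjusted p values of 0.0811, 0.0752, 0.0571 and 0.0632. It was also lost under quantile normalization (adjusted p = 0.0662), scaling to the median (0.0548) or to the spike-in probes (0.255). The same held when limma used the arrays of these 2 turns alone (adjusted p = 0.0537).

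Ctbp2 encodes both RIBEYE and the co-repressor CtBP2. Its signal was 663.0, 714.7, 724.1 and 750.7 at the apex, 760.3, 828.2, 774.7 and 842.9 in the middle and 815.0, 923.5, 830.4 and 901.7 at the base. All apical arrays lay below all others, and middle and basal arrays overlapped. The apex was 0.28 log2 units below the base (SE 0.0612, adjusted p = 0.00365), and the other comparisons were not called. Of 9 probes, 8 were lower at the apex, by 0.23 to 0.38 log2 units, where 16.4% of all probes were called lower. These 8 are listed for both NM_009980 and NM_001170744, so the RNAs of the 2 transcripts are not separated by them. Probe 1, listed for NM_009980 alone, measured 297.7 at the apex and 310.6 at the base, a difference of -0.06 (adjusted p = 0.643), and lay above the other probes of the gene by 0.25 log2 units (adjusted p = 0.0262). No probe is listed for NM_001170744 alone.

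**Figure D2:**
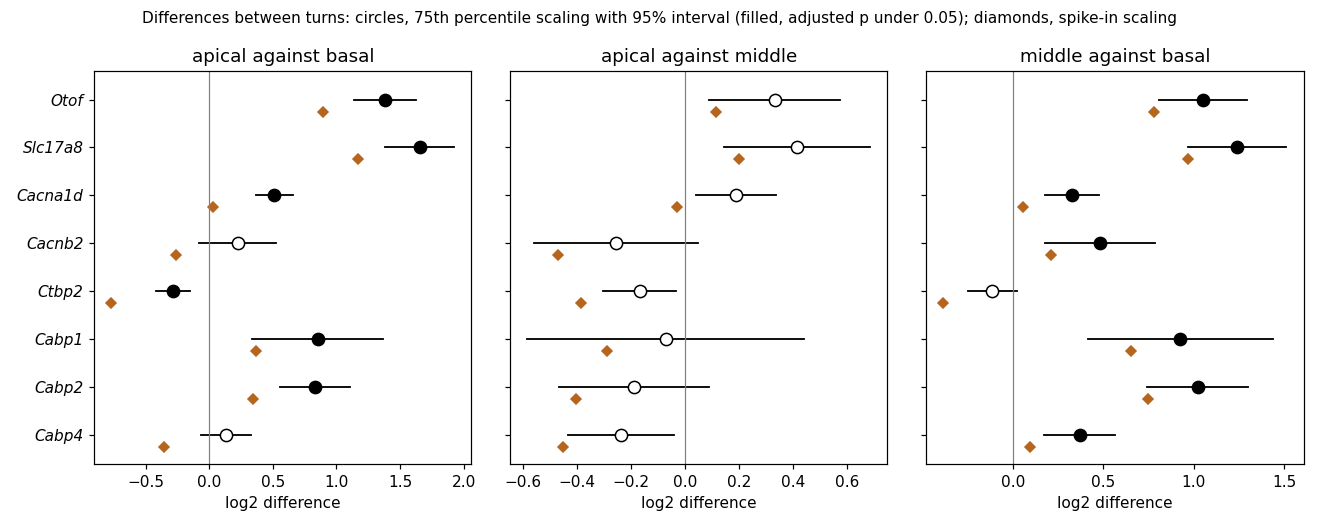
Log2 difference of each gene in the 3 comparisons of turns. Circles with lines are the differences and 95% intervals under 75th percentile scaling, filled where the adjusted p was under 0.05, and diamonds are the same differences under spike-in scaling. Otof and Slc17a8 stayed above 0 in all 3 panels under both, while Cacna1d moved from 0.51 to 0.03 between apex and base and Cacnb2 from 0.22 to -0.26.

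The 3 CaBP genes encode relatives of calmodulin, and mutations of Cabp2 in humans cause hearing loss. The signal of Cabp2 was 258.1, 240.2, 318.4 and 235.5 at the apex, 267.5, 348.8, 310.4 and 271.0 in the middle and 141.0, 124.0, 166.1 and 160.0 at the base. All basal arrays lay below all others, and apical and middle arrays overlapped. The apex exceeded the base by 0.83 log2 units (SE 0.126, adjusted p = 0.000432), and the middle exceeded the base by 1.02 (adjusted p = 0.000435). Of its 6 probes, 4 were higher at the apex by 1.23 to 1.45 log2 units, where 18% of all probes were called higher. The files list these 4 for all 3 transcripts of the gene. Probe 2, listed for NM_013878 alone, measured 139.8, 186.3 and 125.3 in apex, middle and base, a difference of 0.06 between apex and base (adjusted p = 0.878). Probe 1 was well above background on a single array.

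Cabp1 varied most of the 8 genes between arrays of the middle and of the basal turn (SD 0.333 and 0.513 log2 units), but not of the apical turn (0.136). Its signal was 590.7, 482.8, 509.0 and 568.7 at the apex, 789.7, 474.6, 537.1 and 500.8 in the middle and 328.4, 201.0, 460.8 and 254.8 at the base. Middle array 1 and basal array 3 stood above the others of their turns, but no basal array reached an apical or middle one. The apex exceeded the base by 0.85 log2 units (SE 0.233, adjusted p = 0.0129), or by 0.37 with spike-in scaling (adjusted p = 0.148). The middle exceeded the base by 0.93 (adjusted p = 0.0173), a call that was lost without middle array 1 (adjusted p = 0.0509) or basal array 4 (0.0511). It was also lost when limma used the arrays of these 2 turns alone (adjusted p = 0.0521). Cabp1 is also made by neurons, and a list of 14 spiral ganglion neuron markers moved with it. The mean log2 signal of that list was 10.2 on middle array 1 against 9.576 to 9.782 on the other middle arrays, and 9.569 on basal array 3 against 8.159 to 8.801 on the other basal arrays. The summed signal of the list was between 30540 and 39470 at the apex, 28340 and 49240 in the middle and 7079 and 27130 at the base. Of its 14 genes, 8 were higher at the apex than at the base, 1 was lower and 5 were not called, against 17.6% of all genes higher and 21.6% lower. None of the 14 was below background on every array. Its part in the Cabp1 result was not tested. Probes 3 to 5 of Cabp1 were higher at the apex by 1.46 to 1.49 log2 units, where 18% of all probes were called higher. Probe 2 (-0.07, adjusted p = 0.672) and probe 6 (0.15, adjusted p = 0.206) were not called, although probe 6 was the brightest, with 5871 at the apex and 5332 at the base, and probe 1 was not well above background on any array.

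Cabp4 was the dimmest of the 8, and 4 of its 5 probes were not well above background on any array. Averaged over all 5, its signal was between 11.63 and 18.65 on the 12 arrays, with a difference of 0.13 log2 units between apex and base (adjusted p = 0.297) that turned to -0.36 (adjusted p = 0.0141) with spike-in scaling. The middle turn exceeded the base by 0.37 (adjusted p = 0.0151), a call that was lost under quantile normalization (0.17, adjusted p = 0.168), spike-in scaling (0.097, adjusted p = 0.535) and the median of probes (0.093, adjusted p = 0.822). The remaining probe, probe 2, was well above background on all 12 arrays. It measured 124.8, 154.6, 174.5 and 146.9 at the apex, 154.9, 125.2, 163.1 and 166.1 in the middle and 62.00, 26.64, 59.17 and 90.82 at the base. The basal arrays lay below all others for this probe. The differences were 1.45 log2 units between apex and base (SE 0.296, adjusted p = 0.00361) and 1.47 between middle and base (adjusted p = 0.0102).

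**Figure D3:**
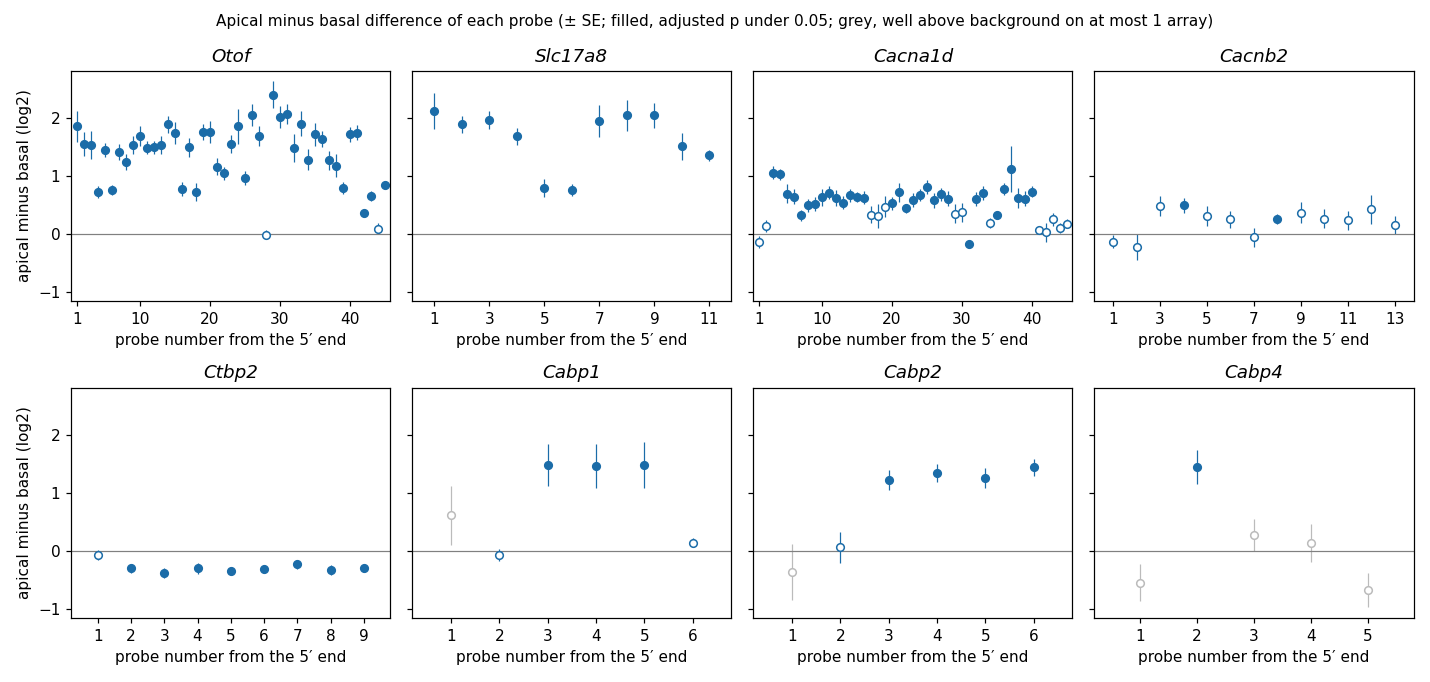
Apical minus basal difference (log2, ± SE) of each of the 140 probes, by number from the 5′ end of its gene. Filled points had an adjusted p under 0.05 and grey points were well above background on at most 1 array. In Otof, probe 28 lies at 0.00 beside probe 29 at 2.41, and in Cabp4 the only blue point, at 1.45, stands above 4 grey ones.

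The order of the 3 turn means differed among the genes. It was apex, middle, base from high to low for Otof, Slc17a8 and Cacna1d, an order that 22.6% of all genes had, and the reverse for Ctbp2 (28.8%). Cacnb2, Cabp1, Cabp2 and Cabp4 peaked in the middle turn, with their lowest mean at the base (15.3%). Apex and middle are neighbors in all of these orders, and limma called none of the apex-middle differences.

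Hair cell genes moved in the same direction as most of these genes. Of 15 hair cell markers measured, 14 were higher at the apex than at the base (17.6% of all genes) and 9 by 2-fold or more (3.32%). Their median difference was 1.33 log2 units. Examples are Ptprq (1.99, a stereocilia phosphatase), Grxcr1 (1.97), Strc (1.87, which encodes stereocilin) and Lhfpl5 (1.62, a part of the transduction channel complex). Of the 4 probes of Grxcr1, 0 were well above background on all 12 arrays. The summed signal of the markers was 19970 to 22400 at the apex, 18280 to 25720 in the middle and 8090 to 16810 at the base. Most of it came from Pvalb (means 9740, 10510 and 4504 in apex, middle and base) and Cib2 (6554, 6230 and 3868). Within its turn, Pvalb was brightest on middle array 1 (14770) and basal array 3 (8472), where the neuron list was also highest. The part of neurons in this was not tested, and Pvalb stayed in the list used below. All 7 outer hair cell markers measured were higher at the apex, among them Slc26a5, which encodes the motor protein prestin, with 347.4 at the apex and 46.50 at the base (2.94 log2 units), Ocm (1.92), Chrna10 (1.85) and Chrna9 (1.78), the last 2 encoding the acetylcholine receptor of outer hair cells. Of 4 genes enriched in inner hair cells, Slc7a14 (1.40) and Calb2 (1.72, also a neuronal gene) were higher at the apex, and Fgf8 (0.03) and Tbx2 (-0.28) did not pass the test. On each array, the mean of the hair cell list was then subtracted from every gene. Relative to it, Slc17a8 remained higher at the apex than at the base by 0.50 log2 units (SE 0.111, adjusted p = 0.000504), where 0.779% of all genes did. With normexp background correction this fell to 0.18 (adjusted p = 0.0397). Otof differed by 0.23 (adjusted p = 0.0538) and Cabp1 by -0.30 (adjusted p = 0.131). The other 5 were lower relative to the list, from -0.32 for Cabp2 (adjusted p = 0.0237) to -1.44 for Ctbp2 (adjusted p = 4.15e-07), as were 94.1% of all genes. The Cabp2 call was lost without apical array 2 (adjusted p = 0.087) or basal array 4 (0.0563), with the median of the list (0.101) and with the list shortened by Strc, Pcdh15 and Cib2 (0.0576). Its value was -0.10 (adjusted p = 0.434) with probes well above background in a turn and 0.06 (0.512) with normexp. Otof passed the test without basal array 2 (adjusted p = 0.035), with the median of the list (0.00848), the shortened list (0.025) or normexp (0.0107). Cabp4 was among them at -1.02, but at 0.28 (adjusted p = 0.179) when only probes well above background in a turn were used, an alternative chosen after seeing the data.

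**Figure D4:**
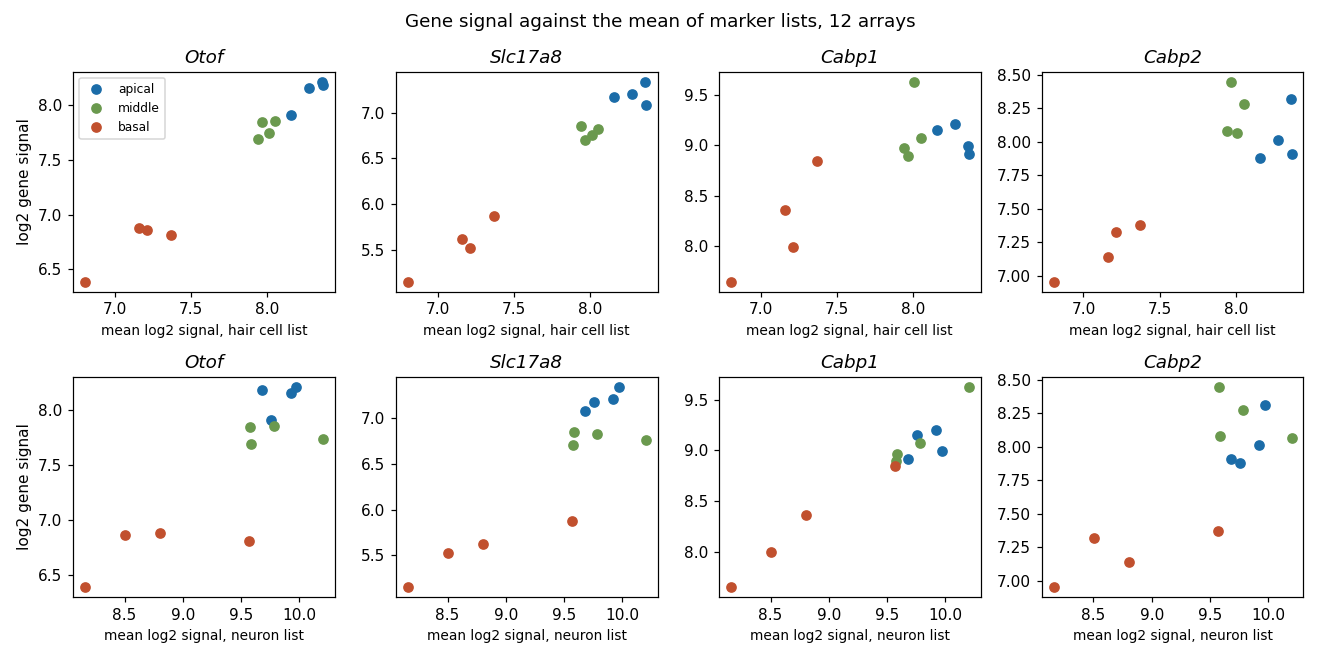
Log2 signal of Otof, Slc17a8, Cabp1 and Cabp2 on the 12 arrays against the mean log2 signal of the hair cell list (upper row) and of the neuron list (lower row) on the same array, colored by turn. The basal arrays have the lowest hair cell means, 6.805 to 7.371, and basal array 3 has a neuron mean of 9.569, near the middle arrays, where Cabp1 but not Otof is also near them.

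The genes most like Otof and Slc17a8 over the 12 arrays were sought among 16000 genes with a probe well above background on every array. For Otof they were Slc26a5 (Pearson r = 0.9939), Strc (0.991), Ocm (0.9883), Dytn (0.988) and Homer2 (0.9874). For Slc17a8 they were Slc9a3 (0.9888), Lamb1 (0.9864), Kcna10 (0.9849), Homer2 (0.9845) and Slc26a5 (0.9837). Otof and Slc17a8 correlated with each other at 0.98. The 12 arrays fall into 3 turns, and these values mostly follow the turn means, so no p is given.

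Other genes of the synapse were described from lists of their roles. The counts here and in the next paragraph are of genes called between apex and base. Of all genes, 17.6% were called higher at the apex and 21.6% lower. Of 13 active zone scaffold genes measured, 8 were higher at the apex and 1 lower, led by Pclo (1.65 log2 units), Rims2 (1.32) and Rims1 (1.30), which tether vesicles and channels. Among 13 other calcium channel subunits 5 were higher and 1 lower, with Cacna2d1 at 0.45 and Cacna1c at 0.37, and a list median of 0.10. The only one past the 2-fold limit was Cacna2d3, an auxiliary alpha2delta subunit, at 1.22 (adjusted p = 0.00685). Of 10 calmodulin relatives and other calcium-binding proteins 4 were higher and 1 lower, among them Cib2 (0.78) and Caln1 (-0.74). The only one past the 2-fold limit was Calb1, which encodes the calcium buffer calbindin, at 2.44 (adjusted p = 0.000318), with 1 of its 8 probes well above background on all 12 arrays. Of 10 genes of otoferlin partners, tail-anchored protein insertion and other ferlins, 3 were higher and 2 lower, with a list median of -0.05, Rab8b at 0.69 and Asna1, which inserts tail-anchored proteins, at -0.41.

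Of 20 genes of vesicle fusion, 14 were higher at the apex and 4 lower. Syt1, a calcium sensor of neurons, had the largest difference (2.46), with 1 of its 8 probes well above background on all 12 arrays. Cplx1 (1.71) and Syt7 (1.51) were also higher. In vesicle and glutamate transport 4 of 7 were higher and 3 lower, led by the neuronal transporters Slc17a6 (1.93) and Slc17a7 (1.46). In vesicle retrieval 7 of 14 were higher and 2 lower, led by Amph (1.59), Pacsin1 (1.31), Sh3gl2 (1.29) and Dnm1 (1.29). On the postsynaptic side 6 of 13 were higher and 0 lower, among them the AMPA receptor subunits Gria2 (1.66) and Gria4 (1.53). Of the 15 probes of Gria2, 1 was well above background on all 12 arrays. Many of these genes are also made by neurons. Of the 14 neuron markers, 8 were higher at the apex as well, led by Syt1 (2.46), Nefh (2.01), Nefm (2.00) and Nefl (1.80). Of the rest, 1 was lower (Prph, -0.34) and 5 were not called. The part of hair cells or neurons in these values was not tested. All 7 Schwann cell markers were higher at the apex, with Egr2 at 1.17 and Mbp at 0.36. Supporting cell markers were split: of 10, 5 were higher, with Epyc at 1.78, and 3 were lower. The 3 lower ones were Gjb6 (-0.77), S100b (-0.61) and Gjb2 (-0.52). Among 6 fibrocyte markers of the spiral ligament, 4 were lower at the apex (Otos, -1.28, and Coch, -0.57) and 1 was higher. Among 7 stria vascularis markers, 6 were lower (Tyr, -0.82, and Kcnj10, -0.78). Bone markers were lower in 2 of 7 cases (Dmp1, -1.09, and Spp1, -0.72) and blood and immune markers in 3 of 7 (Aif1, -0.52, and Cd68, -0.33), with 0 higher in either list. With 7 genes per list, no departure from the 21.6% of all genes that were lower is claimed for these 2 lists.

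**Figure D5:**
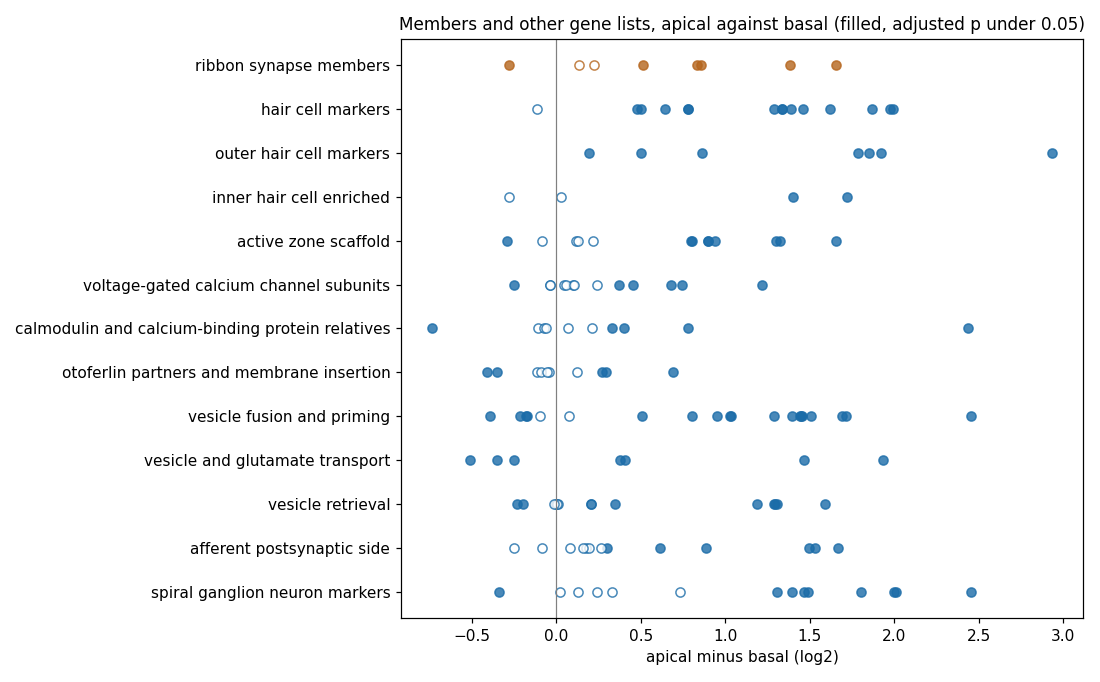
Apical minus basal difference (log2) of each gene, by list, with the 8 ribbon synapse genes in the top row and filled points for an adjusted p under 0.05. The 8 genes run from -0.28 to 1.65, within the range of the vesicle fusion list, which reaches 2.46 at Syt1.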

How the data were processed

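RNA of 12 cochlear samples, 4 for each turn, was measured on single-color exon arrays. Per the methods, the authors extracted spot intensities from scanned images with Agilent Feature Extraction 10.7.3.1. The deposited intensity used here is background-subtracted and not normalized between arrays. The deposited mean and background intensities and spot flags, scores of 0 or 1, were used for alternatives, bounds and filters. The series table held the same intensities as the array files, so it gave the same results. It was counted as an alternative, but could not change a call.

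Control spots were left out, as were 622 probe spots flagged on any array (uneven, deviating or marked by hand). Arrays were scaled to a common 75th percentile (640.8) and log2 transformed, spots were averaged per probe, and probes per gene name. The average of probes follows the authors' gene-level method. No filter on dim probes was used. Groups came from the labels. Because the unit is intensity, limma 3.58.1 in R 4.3.3 was used (lmFit, eBayes), where the authors used a one-way analysis of variance. Probes were also tested against the mean of the other probes of their gene, in genes with 3 or more probes, and genes against the hair cell list. Dim probes limit precision, since their signal lies close to background.

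In simulated data built on these arrays, for the apical against basal comparison, the gene test over 19505 genes recovered 31 of 50 genes changed 1.5-fold and 44 of 50 changed 2-fold. The test of a probe against its gene's other probes, over 159900 probes, recovered 183 of 200 probes changed 2.83-fold.

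The genes and lists were chosen with earlier results of these data known. From each list, up to 4 genes per direction past the test and a 2-fold limit between apex and base are named, or the 2 with the smallest p where fewer than 2 passed. The values of 2 genes that this rule names are not reported here. Others, such as Fgf8, Tbx2, Cacna2d3, Calb1, Gjb6, S100b, Gjb2 and the last probes of Cacna1d, were singled out after their values were seen. The lists were hair cell, inner hair cell, outer hair cell, neuron, Schwann cell, supporting cell, fibrocyte, stria, bone and blood markers, and genes of the active zone, calcium channels, calcium-binding proteins, otoferlin partners, vesicle fusion, transport, retrieval and the postsynaptic side. Genes of these lists without a probe under that name were not analysed here. Probe positions are on mm9, and exon annotation of that build was not used here. Alternatives were quantile, median and spike-in scaling, normexp correction, the median of probes, filters on dim probes, flagged spots kept, 16 added to each signal, arrays left out, a replicate block, the median of the hair cell list or that list without Strc, Pcdh15 and Cib2, the arrays of 2 turns, limma's trend and robust options, the methods' analysis of variance and exact permutation tests.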

Additional observations from a re-analysis of the deposited data

Results flagged for a closer look

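The Otof signal of basal array 2 was 83.69, while the other basal arrays lay between 112.2 and 117.8, a gap of 0.834 of the range of the 4 arrays. It was the only one of 24 groups of 4 arrays (8 genes in 3 turns) in which an array stood that far apart, and chance alone marks about 1 group in 20. The same array had the lowest mean of the hair cell list (6.805) and of the neuron list (8.159) of all 12. Without it, Otof was called higher in the apex than in the middle turn (0.33 log2 units, limma adjusted p = 0.022), and the number of the 8 genes 2-fold higher in the middle than in the base fell from 3 to 1. The cause was not tested.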

How the results depend on the processing

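Otof, Slc17a8, Ctbp2 and Cabp2 kept their call between apex and base under all 25 alternatives, with differences of 0.89 to 1.49, 0.84 to 1.76, -0.77 to -0.25 and 0.34 to 1.27 log2 units. Between middle and base, Otof, Slc17a8 and Cabp2 also kept theirs.

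Of the 8 genes, 2 passed the 2-fold limit between apex and base, but 1 with spike-in scaling, 0 with normexp correction, and 4 with the median of probes or with either filter on dim probes. Between middle and base 3 did, but 1 with quantile normalization or scaling to the median, and 0 with spike-in scaling, normexp or 16 added. Over all genes, the count between apex and base was 872, against 1478 with spike-in scaling, 313 with normexp and 574 with 16 added. Between apex and middle it was 76, against 134, 12 and 36, and 40 for probes well above background on all arrays. Between middle and base it was 519, against 170 with normexp and 316 with 16 added. Of called genes, those higher in apical than middle arrays made up 36.7%, against 18.7% with median and 2.69% with spike-in scaling. Those higher in middle than basal arrays made up 55.8%, against 44.9% with quantile normalization, 38.2% with median and 10.3% with spike-in scaling.

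Between apex and middle, limma called 0 of the 8 genes. It called 1 higher at the apex with the filter on probes well above background in a turn or trend and robust options. With 16 added or these turns alone, 2 were higher (Otof, Slc17a8). With median scaling 2 were lower (Ctbp2, Cabp4), and with spike-in scaling 4. Exact permutation tests (unadjusted) called 4, in both directions. Of the 140 probes, limma called 5, against 10 with that filter. Against their gene's other probes, 38 were called between apex and base and 15 between middle and base, against 58 and 24 with normexp.

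These signs turned. Between apex and base, Cacnb2 was at -0.26 with spike-in scaling, and Cabp4 at -0.36 with spike-in scaling, -0.015 with quantile normalization and -0.021 with the median of probes. Between apex and middle, Cacna1d was at -0.028 with spike-in scaling and Cabp2 at 0.061 with the median of probes. Relative to the hair cell list, with normexp Cabp1 was at 0.022 and Cabp2 at 0.060 between apex and base, and with probes well above background in a turn (chosen after seeing the data) Cabp4 was at 0.28 between apex and base and 0.60 between middle and base. The cause was not tested.

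With single arrays left out, 0 to 2 of the 8 genes were called between apex and middle: 2 without apical array 4 (Otof and Cacna1d) or basal array 2 (Otof and Slc17a8) and 1 without basal array 3 (Slc17a8). Those 2-fold higher in the middle than the base numbered 1 (without basal array 2) to 4, and those called relative to the hair cell list between apex and middle 1 (without apical array 2 or middle array 4) to 4. The share higher in apical than middle arrays was 47.7% without middle array 4, and that in middle than basal arrays 66.6% without middle array 3. Probes called between apex and middle numbered 1 to 10 (10 without apical array 4), and those called against their gene's other probes between middle and base 5 (without middle array 1 or 2) to 22. Cabp1 ran from -0.15 to 0.090 (without middle array 1) between apex and middle, and from -0.087 (the same array) to 0.20 relative to the hair cell list between middle and base.

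The sources do not say whether a sample number marks a mouse. Deviations of same-numbered arrays correlated at -0.0367 to 0.227 (mean 0.0949, over 0.1 in 6 of 12 pairs, and mean -0.0313 for different numbers). Among the 4 numbers, 9 of 12 arrays were most like their own. Pairing by number was not established. With the sample number as a replicate block, 2 of the 8 genes (Slc17a8, adjusted p = 0.0206, and Ctbp2, 0.0294) and 11 probes of the 8 were called between apex and middle, and 9 probes against their gene's other probes between middle and base. The block and left-out arrays over probes were added after seeing the data.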
